A study of Mus musculus with 11 samples.

Results

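The genes described here mark mesenchymal progenitor cells: the transcription factor genes Prrx1, Twist1 and Twist2, the receptor genes Pdgfra, Pdgfrb, Lepr and Eng, and the surface antigen genes Thy1, Nt5e and Ly6a. These 10 genes were taken by name, with no threshold on a measured value. Every accessible region was taken that lay between 50 kb upstream of a gene and the gene's end, which gave 87 of the 94963 regions in the list. Chromatin accessibility had been measured by ATAC-seq, in which a transposase cuts open chromatin, in MPC2 cells, a conditionally immortalised mouse mesenchymal line derived from 1 clone that proliferates at a permissive temperature and mineralises in osteogenic medium. The 11 cultures were undifferentiated MSCs with vehicle (DMSO, n = 3), MSCs with FG-4592 (n = 3), osteocytes with vehicle (n = 2) and osteocytes with FG-4592 (n = 3). Osteocytes had been differentiated for 3 weeks, and FG-4592 (Roxadustat), an inhibitor of the prolyl hydroxylases that mark HIF for destruction, was given at 50 uM for 48 hours.

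All of these cultures were combined by the authors into 1 list with 1 value per region, read here as a log2 CPM, the transposase cuts in a region relative to library depth, averaged over the cultures. No value per culture was given, so MSCs and osteocytes, or vehicle and FG-4592, could not be compared from this list, the depth of a culture was unknown, and no replicate error or p-value could be given. Every value below describes the pooled list, and a gene that is open in either cell stage can appear in it.

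Mesenchymal progenitors are stromal cells that can form bone, fat and cartilage cells. Prrx1 encodes a homeodomain factor of limb and craniofacial mesenchyme, and Twist1 and Twist2 encode related basic helix-loop-helix factors that bind E-boxes with E proteins and hold back osteoblast maturation. Pdgfra and Pdgfrb encode the receptor tyrosine kinases for platelet-derived growth factors, Lepr encodes the leptin receptor, which labels perivascular stromal cells of the bone marrow, and Eng encodes endoglin, a co-receptor of the TGF-beta family. Thy1 (CD90) and Ly6a (Sca-1) encode proteins anchored to the membrane by a lipid, and Nt5e (CD73) encodes the enzyme that makes adenosine from AMP. CD90, CD73 and endoglin (CD105) are used together to define mesenchymal stromal cells, and Sca-1 is used in the mouse.

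The promoter stretches of 7 genes are shown first because these genes hold the highest and the lowest promoter levels and the promoters with no region at all. Each is the 150 bases just before the gene's annotated 5′ end in GENCODE M21, read from the mm10 genome (RefSeq sequence) 5′ to 3′ on the gene's own strand, with each CpG dinucleotide in capitals.
Twist1 (chr12:33957521-33957670, + strand, 9 CpG): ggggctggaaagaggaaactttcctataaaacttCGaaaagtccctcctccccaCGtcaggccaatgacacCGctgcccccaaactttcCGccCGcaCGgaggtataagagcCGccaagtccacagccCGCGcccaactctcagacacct
Twist2 (chr1:91801311-91801460, + strand, 12 CpG): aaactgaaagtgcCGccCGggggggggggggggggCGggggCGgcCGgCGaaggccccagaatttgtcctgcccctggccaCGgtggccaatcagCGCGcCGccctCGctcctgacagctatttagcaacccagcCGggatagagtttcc
Pdgfra (chr5:75152142-75152291, + strand, 1 CpG): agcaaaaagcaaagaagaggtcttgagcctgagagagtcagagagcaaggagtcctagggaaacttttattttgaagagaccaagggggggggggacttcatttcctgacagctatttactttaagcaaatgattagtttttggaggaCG
Nt5e (chr9:88327047-88327196, + strand, 11 CpG): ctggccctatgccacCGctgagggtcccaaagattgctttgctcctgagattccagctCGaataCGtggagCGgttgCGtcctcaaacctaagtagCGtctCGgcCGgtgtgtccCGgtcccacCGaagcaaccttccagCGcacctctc
Lepr (chr4:101717254-101717403, + strand, 10 CpG): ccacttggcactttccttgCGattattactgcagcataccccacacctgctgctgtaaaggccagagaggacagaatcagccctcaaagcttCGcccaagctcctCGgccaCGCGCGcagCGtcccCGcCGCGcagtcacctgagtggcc
Thy1 (chr9:44043234-44043383, + strand, 4 CpG): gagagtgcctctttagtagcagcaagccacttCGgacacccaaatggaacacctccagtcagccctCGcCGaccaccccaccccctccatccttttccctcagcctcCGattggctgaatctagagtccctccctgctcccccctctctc
Ly6a (chr15:74998032-74998181, - strand, 1 CpG): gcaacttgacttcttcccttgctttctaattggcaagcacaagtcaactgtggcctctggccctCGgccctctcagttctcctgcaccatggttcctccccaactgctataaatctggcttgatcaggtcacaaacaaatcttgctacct
All 150 bases of the Twist1 stretch and all 150 of the Twist2 stretch lay inside an accessible region. None of the 150 bases lay inside a region for Pdgfra, Nt5e, Lepr, Thy1 or Ly6a, although Nt5e had a region that began 40 bp into the gene and Pdgfra had regions further inside the gene.

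Stretches from inside 6 distal regions are shown because each comes from the distal region with the highest level of its gene. Of the 7 genes with a distal region, Pdgfrb is not shown. Distal means more than 1000 bp from every annotated transcript start. Capitals mark 1 motif match, and a match describes letters only, not a bound site. Apart from that of Pdgfra, each region also held a match to another of the motifs counted below, so the match shown does not characterise the region. The first 3 hold an AP-1 motif (TGACTCA or TGAGTCA), the letters bound by Fos and Jun dimers, the next pair an E-box (CATCTG, at Prrx1 as its complement), the letters read by Twist and E protein dimers, and the last a TEAD motif (GGAATG), the letters read by the factors of the Hippo pathway.
Eng, 48.7 kb upstream (chr2:32597978-32598064, + strand): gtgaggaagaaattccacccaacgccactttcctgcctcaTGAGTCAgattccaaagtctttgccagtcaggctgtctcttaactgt
Twist2, intron 1 (chr1:91816804-91816890, + strand): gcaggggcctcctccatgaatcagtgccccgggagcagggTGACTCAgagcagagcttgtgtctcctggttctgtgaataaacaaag
Nt5e, 50.0 kb upstream (chr9:88277208-88277294, + strand): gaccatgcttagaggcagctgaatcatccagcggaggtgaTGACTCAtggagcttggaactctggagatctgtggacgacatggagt
Prrx1, intron 1 (chr1:163282407-163282492, - strand): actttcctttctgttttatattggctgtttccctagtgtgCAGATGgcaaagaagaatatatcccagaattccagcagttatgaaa
Pdgfra, 9.03 kb upstream (chr5:75143469-75143554, + strand): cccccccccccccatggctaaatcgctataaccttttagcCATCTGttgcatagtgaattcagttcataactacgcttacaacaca
Lepr, 41.7 kb upstream (chr4:101675441-101675526, + strand): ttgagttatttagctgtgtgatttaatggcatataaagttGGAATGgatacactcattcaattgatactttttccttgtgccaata

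The 10 genes differed widely among themselves in the number of regions, from 19 at Pdgfrb to 0 at Ly6a. Pdgfrb had 19 regions, Prrx1 15, Eng 14, Twist2 12, Nt5e 11 and Lepr 9, whereas Pdgfra had 5, Twist1 1, Thy1 1 and Ly6a 0. Each count was set beside those of coding genes within 20% of its length, since long genes hold more regions. Of the 10 genes, 6 had more regions than the median of their comparison genes and 4 had fewer. Among all 21938 coding genes, 45.8% lay above the median of their own comparison genes, so the members' share of 6 in 10 lay near the background. No region at all, the state of Ly6a, was found for 16.5% of coding genes.

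**Figure D1:**
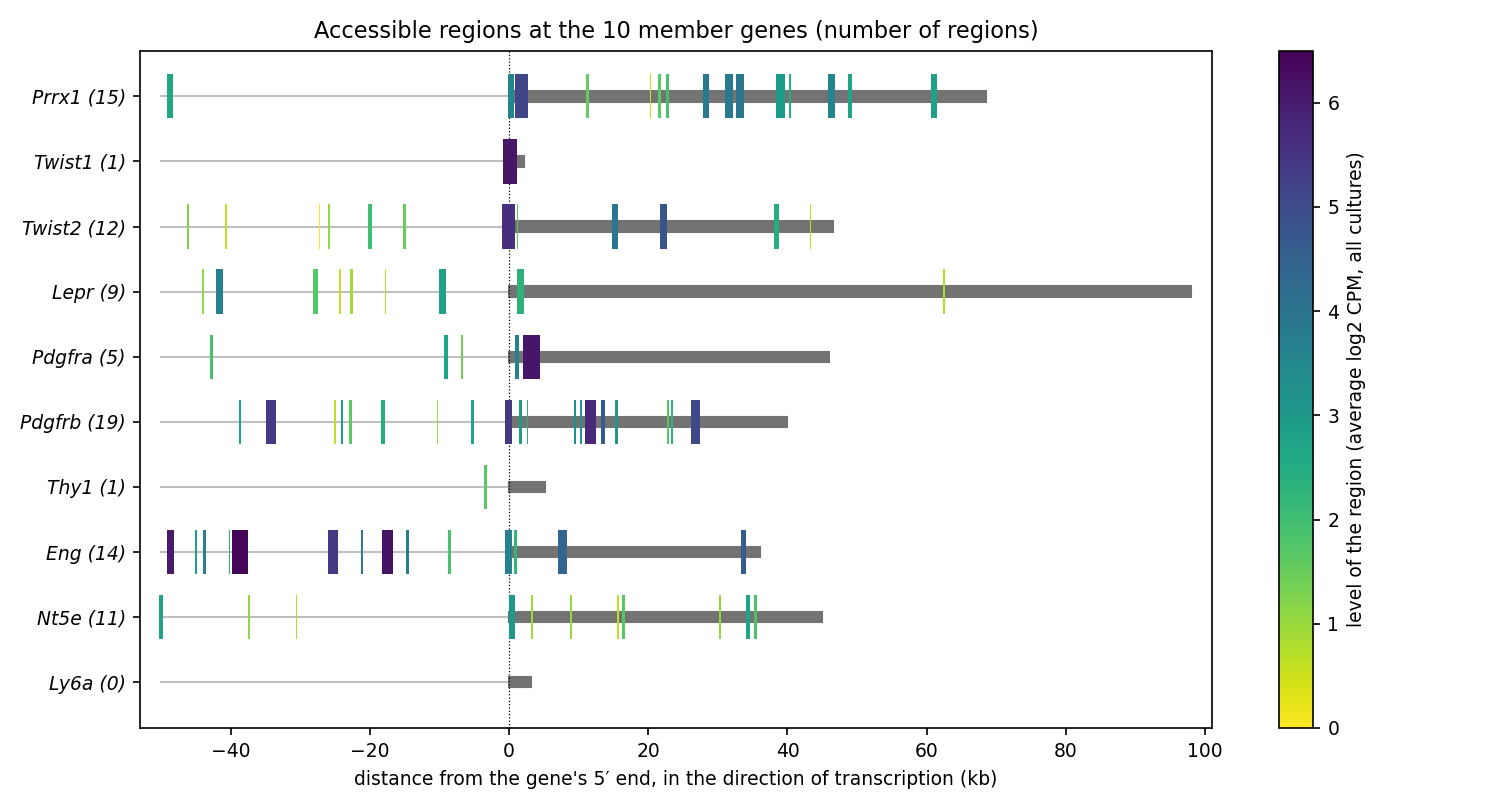
Position of the 87 regions at the 10 genes, as distance in kb from the gene's 5′ end along the direction of transcription. The dark bar is the gene body, the thin line the window from 50 kb upstream, and the colour of each region its average log2 CPM over all cultures. The body of Prrx1 held 14 regions, that of Pdgfrb 11 and the upstream stretch of Eng 10, and none lay at Ly6a.

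Of the 87 regions, 10 lay within 1000 bp of a transcript start of the member gene, which is called its own promoter here. Another 11 lay at the start of some other gene only, and 66 were distal. The distal regions were split between the gene body (34 regions, of which 28 were in introns and 6 touched exons) and the upstream stretch (32 regions), and 17 of the intronic ones were in intron 1. For 65 of the 87 regions, and for 50 of the 66 distal ones, the member was also the coding gene with the nearest start. The median width was 453 bp, against 460 bp for all regions of the list. Level per length, the CPM divided by the width in kb and put on a log2 scale, had a median of 3.48 at the member genes and 3.25 over all regions, and 51 of the 87 lay above the latter. Of these 51, Pdgfrb supplied 16 from its 19 regions and Eng 13 from its 14. Among distal regions the medians were 3.20 at the members and 3.15 over the list, and 35 of the 66 lay above the latter. By gene these were 16 of 18 at Pdgfrb, 6 of 7 at Eng, 6 of 11 at Prrx1 and 2 of 2 at Pdgfra. At the other genes with distal regions they were 2 of 9 at Twist2, 2 of 10 at Nt5e and 1 of 9 at Lepr.

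**Figure D2:**
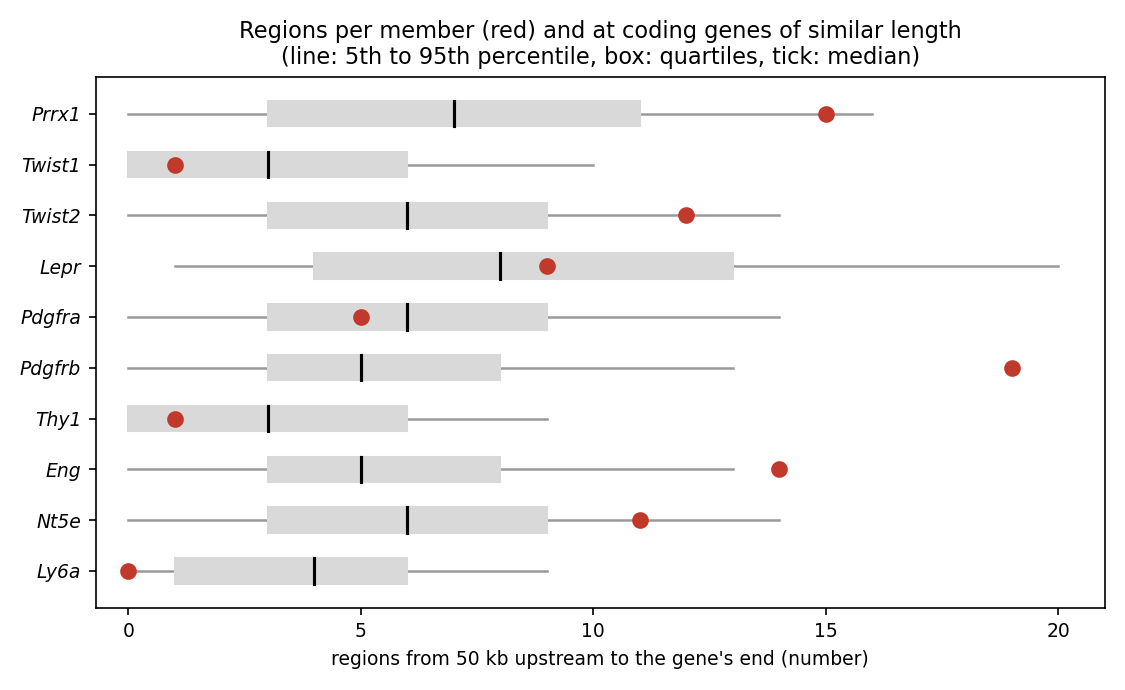
Number of regions per gene (red points) and the spread of that number over coding genes of similar length (grey line, 5th to 95th percentile; box, quartiles; tick, median). Pdgfrb with 19 and Eng with 14 lay beyond the 95th percentile of 13, and Ly6a lay at 0.

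At the transcription factor genes, accessibility took a different form at each. Prrx1 (chr1:163245119-163313710, - strand, 68592 bp) had 15 regions, more than 91.5% of its 1537 comparison genes, whose median was 7. The regions lay inside the gene. Its body, promoter included, held 14 of them, against a median of 3 and more than in 98.8% of comparison genes, and the 50 kb upstream held 1, fewer than the median of 3. Intron 1, the long intron between the first and second exon, held 11 of the 15 regions, 2 of which lay at the starts of annotated long noncoding RNA genes, Gm20471 and Gm26523. The Prrx1 promoter was covered by 2 regions at 5.17 and 3.54 average log2 CPM. The distal region with the highest level was in intron 1, 31.6 kb into the gene (chr1:163281535-163282735), at 3.86. A neighbouring region 28.3 kb into the gene had the same level, 3.86, in a narrower span and was therefore higher per length, at 4.15 against 3.59 log2 CPM per kb. The distal regions of Prrx1 ranged from 2.61 to 4.15 per kb with a median of 3.18, close to the 3.15 of all distal regions.

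Twist1 and Twist2 encode proteins with the same basic helix-loop-helix domain, and both had a promoter region in sequence rich in CpG, but within the window Twist2 had further regions and Twist1 had none. The window follows Twist2 past its start for the whole of a gene of 46568 bp and Twist1 for 2159 bp, and regions beyond the 3′ end are not counted in it. The whole of the accessibility in the window of Twist1 (chr12:33957671-33959829, + strand, 2159 bp) lay in 1 region of 2037 bp across the promoter and the 5′ part of the gene (chr12:33956827-33958863), at 6.13 average log2 CPM. No region lay in the 50 kb upstream, where comparison genes had a median of 3, and the count of 1 was above that of only 27.3% of 714 comparison genes. Because that 1 region was strong, its CPM of 70.3 was above the summed CPM of 64.7% of the same genes. Twist2 (chr1:91801461-91848028, + strand, 46568 bp) had 12 regions, more than 88.3% of 1900 comparison genes with a median of 6. The Twist2 promoter region spanned 1790 bp at 5.61 and also lay within 1000 bp of the start of the noncoding gene Gm29100. In its only intron, regions 15.2 kb and 22.2 kb into the gene had levels of 3.97 and 4.81, the latter at the start of the noncoding gene Gm29101, which lies within that intron. The 6 regions upstream of Twist2 had levels between -0.05 and 1.98.

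The receptor genes for platelet-derived growth factors, paralogs of similar length, differed in the count. Pdgfrb (chr18:61045150-61085061, + strand, 39912 bp) had 19 regions, more than 99.7% of 2096 comparison genes with a median of 5. Of these, 13 were under 500 bp wide, and with only the other 6 counted Pdgfrb stood above 86.4% of comparison genes. Its summed CPM of 280.7 was above that of 99.1% of these genes, whose median was 70.2. The body, promoter included, held 11 regions and the upstream stretch 8, more than 99.4% and 93.5% of comparison genes. Apart from the promoter region, at 5.46, all of the other 18 were distal. The highest lay in intron 2, 11.7 kb into the gene (chr18:61056109-61057621), at 5.74, a level above that of the promoter. Intron 2 held 6 regions, intron 3 a further one, and a region over exon 12 (chr18:61071287-61072563) reached 5.07. Upstream, a region at 34.3 kb (chr18:61010134-61011645) had 5.43, although the nearest coding start there was that of Slc6a7, and the 8 upstream regions all lay nearer to Slc6a7 or Cdx1 than to Pdgfrb. The Pdgfrb distal regions were also high for their width: 16 of 18 lay above the median per length of all distal regions, and their own median was 4.39 log2 CPM per kb. The median of all distal regions on the same chromosome was 3.10.

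Pdgfra (chr5:75152292-75198215, + strand, 45924 bp) had 5 regions, close to the median of 6 for 1927 comparison genes, of which 40.6% had fewer. It nevertheless had the highest promoter level of the 10 genes, 6.14, in a region of 2473 bp (chr5:75154228-75156700). This region was centred 3.17 kb inside the gene, and its nearest edge lay 1936 bp from the gene's 5′ end. It lay within 1000 bp of a start of another annotated Pdgfra transcript and of starts of the noncoding genes Gm42802 and Gm42803. A second promoter region nearer the 5′ end, 837 bp from it, had 3.63. No region covered the 5′ end itself. Both promoter regions together made up 86.4% of the summed CPM of the gene. No distal region lay in the body of Pdgfra, and the distal regions upstream reached 2.72 at 9.03 kb (chr5:75142976-75143558). At Pdgfrb the promoter made up 15.7% of the summed CPM. Around the 5′ end the CpG content was alike, at 0.398 of the expected number for Pdgfra and 0.394 for Pdgfrb.

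Lepr (chr4:101717404-101815352, + strand, 97949 bp), the longest of the 10 genes, had 9 regions, close to the median of 8 for 1250 comparison genes, but they were weak and mostly outside the gene. Its summed CPM of 36.4 was above that of only 22.0% of comparison genes. The body held 2 regions against a median of 5, and the upstream stretch held 7, more than in 91.1% of comparison genes. No region lay within 1000 bp of a start of Lepr. The nearest was 1192 bp inside the gene in intron 1, at 2.35, and the other region in the body, over exon 14, had 0.80. The highest, at 3.62, lay 41.7 kb upstream (chr4:101675214-101676263), where the nearest coding start was that of Leprot, the neighbouring gene. Only 1 of the 9 regions lay above the median per length of all distal regions.

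Eng (chr2:32646595-32682669, + strand, 36075 bp) had 14 regions, more than 95.8% of 2192 comparison genes with a median of 5, and the highest summed CPM of the 10 genes, 383.4, above that of 99.7%. Most of that lay upstream and near other genes. Of the 10 upstream regions, 5 lay at the starts of the coding genes St6galnac6 and Ak1, with levels up to 6.41 and 6.18. The highest distal region, 48.7 kb upstream (chr2:32597354-32598397), had 6.05 and the highest level per length of all 87 regions, 5.99 log2 CPM per kb, and its nearest coding start was that of St6galnac6. With 20 kb upstream in place of 50 kb Eng had 7 regions, and with 10 kb 5, more than 74.6% of comparison genes. The promoter of Eng itself had 2 regions, the higher at 3.63, which made up 4.44% of the summed CPM. Inside the gene, a region in intron 1 (7.68 kb into the gene) had 4.38 and a region over exon 13 had 4.63, both above the promoter, and the latter lay nearer to the start of Fpgs than to that of Eng.

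The 3 genes for surface antigens anchored to the membrane had little signal. Nt5e (chr9:88327197-88372092, + strand, 44896 bp) had 11 regions, more than 84.0% of 1962 comparison genes with a median of 6, and 8 of them lay in the body, against a median of 3. The regions were narrow and low. Their summed CPM of 39.8 was above that of only 30.2% of comparison genes, 9 of the 11 were under 500 bp wide, and with only regions of at least 500 bp counted Nt5e kept 2 and stood above 30.6% of comparison genes. Its promoter region, at 3.07, was the lowest when each gene is represented by its highest promoter region. The highest distal region straddled the edge of the window 50.0 kb upstream (chr9:88276934-88277387), at 2.74.

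Thy1 (chr9:44043384-44048579, + strand, 5196 bp) had 1 region, against a median of 3 for 1902 comparison genes. It was 308 bp wide, lay 3.39 kb upstream at the start of the noncoding gene Gm39323, and had 1.69. No region lay at the Thy1 promoter or in its body. Ly6a (chr15:74994877-74998031, - strand, 3155 bp) had no region in its window, where 1036 comparison genes had a median of 4 and 77.7% had at least 1. The nearest region began 16190 bp from its 5′ end, beyond the 3′ end of the gene, at 0.11. The Ly6 genes form a cluster of related copies, and the authors discarded reads of low mapping quality. Of the 50-base stretches in the Ly6a window, 44.2% occur elsewhere in the genome, and 45.0% of those around its promoter do. For the other genes these shares ran from 1.06% to 13.2% for the window, the highest at Lepr, and reached 4.10% for the promoter, at Thy1. The part of repeated sequence in the missing Ly6a signal was not tested.

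**Figure D3:**
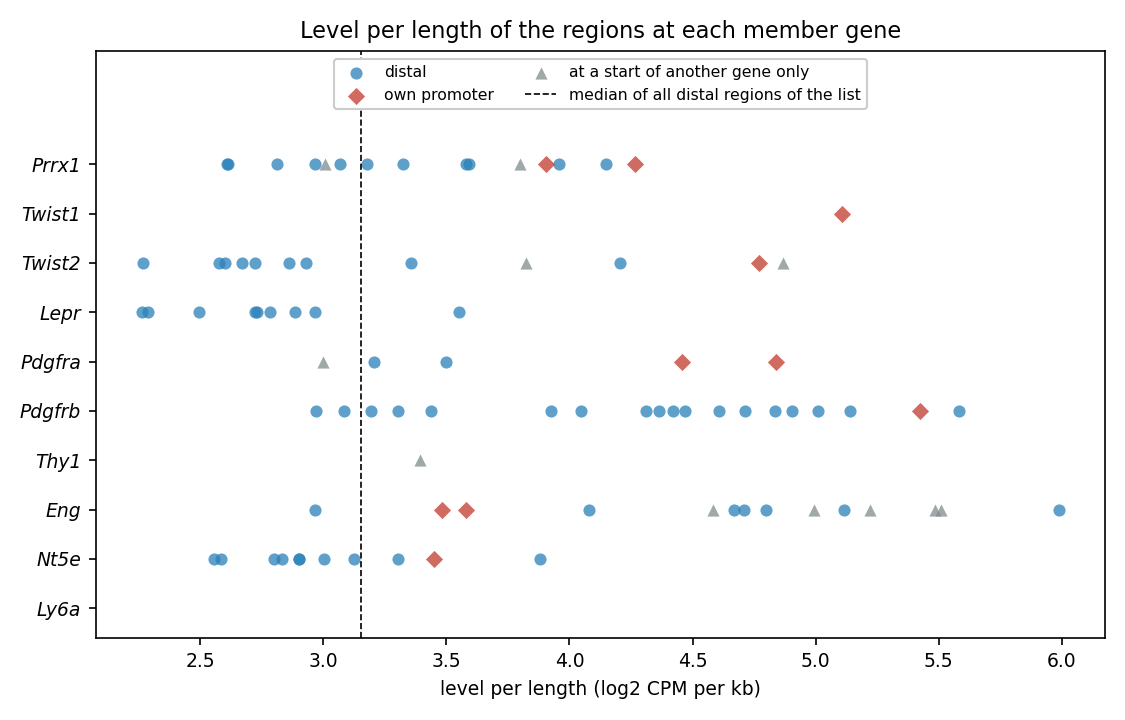
Level per length (log2 CPM per kb) of each of the 87 regions, by gene, for distal regions (circles), own promoters (diamonds) and starts of other genes (triangles). The dashed line is the median of all distal regions, 3.15; at Pdgfrb 16 of 18 distal regions lie to its right, at Lepr 1 of 9.

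Promoter accessibility was found for 7 of the 10 genes, and was missing for Lepr, Thy1 and Ly6a. Over all coding genes the share was 64.1%, so a count of 7 in 10 lay near the background. The levels were highest for Pdgfra at 6.14, Twist1 at 6.13, Twist2 at 5.61, Pdgfrb at 5.46 and Prrx1 at 5.17, and lowest for Eng and Nt5e, at 3.63 and 3.07. Among all coding promoters with a region, Pdgfra and Twist1 stood above 86.4% and 86.3%, Twist2 above 70.3%, Pdgfrb above 65.3%, Prrx1 above 54.7%, Eng above 22.8% and Nt5e above 17.5%. Without replicates it cannot be said which neighbours in this order differ. Per length the order changed, with Pdgfrb first at 5.43 log2 CPM per kb, followed by Twist1 at 5.11 and Pdgfra at 4.84, since the Pdgfra region was the widest. Ranked per length among all coding promoters, Pdgfrb stood above 77.7%, Twist1 above 65.2%, Pdgfra above 53.5%, Twist2 above 50.6%, Prrx1 above 33.4%, Eng above 19.4% and Nt5e above 17.2%.

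Promoters rich in CpG are open in most cell types, so each level was also set beside coding promoters with a like CpG content, the observed over expected number of CpG within 500 bp of the 5′ end (differing by at most 0.1). Twist1, at 0.871, and Twist2, at 0.801, were the richest of the 10 genes, and 93.6% and 92.7% of coding promoters like them had a region. Their levels were above those of 78.4% and 60.3% of such promoters. Pdgfrb was poor in CpG, at 0.394, and 56.0% of promoters like it had a region, but its level was above that of 83.1% of such promoters that did. Eng, at 0.396, stood above 44.1% of its like. No such rank is given for Pdgfra and Prrx1, whose highest promoter regions lay 1936 bp and 886 bp from the 5′ end and so outside the sequence in which CpG was counted. The lower Prrx1 region, at 3.54, covered the 5′ end and was not ranked. The comparison promoters were not checked in this way, so some of their levels can also come from outside that sequence. Nt5e showed the opposite, with a content of 0.685 and a level above only 10.9% of promoters like it. Lepr had no region at a content, 0.564, at which 80.5% of promoters had one, whereas 17.1% had one at the content of Ly6a, 0.0705. For Thy1, at 0.431, the share was 61.3%. The CpG counts of the shorter printed stretches order the genes differently, with 9 at Twist1 against 11 at Nt5e and 10 at Lepr.

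**Figure D4:**
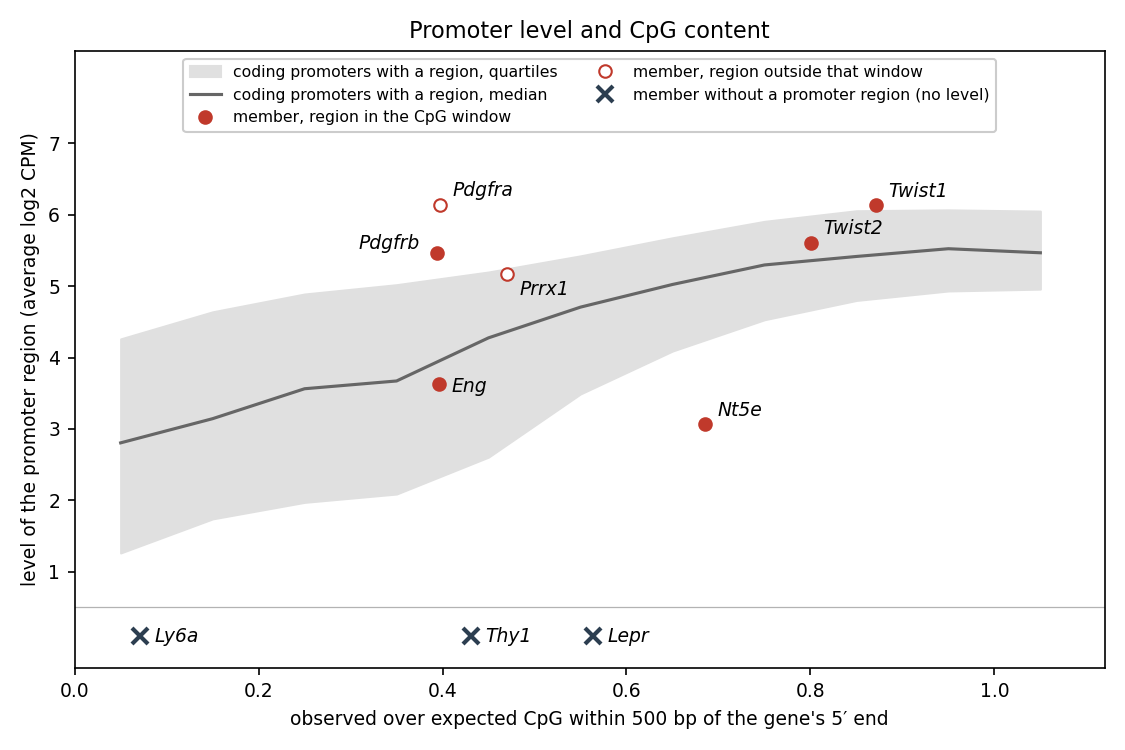
Level of each gene's highest promoter region (average log2 CPM) against the observed over expected CpG within 500 bp of its 5′ end. The grey line and band are the median and quartiles of all coding promoters with a region, in steps of CpG content. Pdgfrb, at 5.46, and Twist1, at 6.13, lie above the band and Nt5e, at 3.07, below it. Open circles mark Pdgfra and Prrx1, whose plotted region lies outside the sequence in which CpG was counted, so their place against the band cannot be read, and crosses in the lower strip mark the 3 genes with no promoter region, which have no level.

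Genes that work with the 10 members were given as a list. Of 17 ligands, co-receptors and partner factors, 14 had a promoter region and 13 had more regions than the median of genes of their length, while 3 had fewer. Over all coding genes 64.1% had a promoter region and 45.8% lay above that median. The E protein genes that dimerise with Twist were all open at their promoters, Tcf3 at 6.18, Tcf4 at 5.36 and Tcf12 at 4.77, and so were the genes of the Id proteins that take E proteins away, Id1 at 5.78, Id2 at 6.08 and Id3 at 5.83. Of the growth factor genes for the PDGF receptors, Pdgfa had 6.03, Pdgfc 4.66 and Pdgfd 3.76, and Pdgfb had no promoter region. Lep, which encodes leptin, and Gdf2, which encodes a ligand bound by endoglin, had none either. Tgfbr2 had 5.71 and Acvrl1, the type I receptor that signals with endoglin, 3.04. Entpd1 encodes CD39, which makes the AMP that CD73 uses, and had 5.66, while the adenosine receptor genes Adora2a and Adora2b had 3.60 and 4.33.

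The name of the gene group was checked against further stromal genes and against genes of cells that such a culture should lack. All 19 further stromal genes had a promoter region, with levels from 2.04 at Nes to 6.43 at Itgb1 and a median of 4.28, and 14 had more regions than the median of similar genes, beside 64.1% and 45.8% over all coding genes. Among 8 blood cell genes, 5 had a promoter region with a median level of 1.84. Ptprc (CD45), Itgam and Cd79a had none, while Cd14, at 4.06, and H2-Ab1, at 3.19, were the highest. Among 5 endothelial genes 2 had one, Pecam1 at 1.89 and Kdr at 1.16, and among 5 epithelial genes 1 had one, Esrp1 at 2.02. The number of regions in the window did not set these lists apart in the same way, since 4 of 8 blood, 1 of 5 endothelial and 3 of 5 epithelial genes had more than the median of similar genes. Cdh1, the E-cadherin gene, had 16, above 93.8% of similar genes, and Krt8 had 8, above 82.3%. Pecam1 had 15, with a summed CPM above that of 95.4% of similar genes. All 7 promoter levels among the members, 3.07 to 6.14, were above those of the 2 endothelial and 1 epithelial genes with a level. They were also above the blood cell genes, except that Eng was below Cd14 and Nt5e below Cd14 and H2-Ab1. Lepr, Thy1 and Ly6a, without a promoter region, have no level to set beside them. Per length, Eng at 3.58 and Nt5e at 3.45 log2 CPM per kb were both below Cd14 at 3.82 and H2-Ab1 at 4.12. Among the further stromal genes the values per length began at 2.77, at Vcam1, under those of Pecam1 at 3.05 and Esrp1 at 3.12. An accessible promoter is not a measure of RNA or protein, and these counts are a description without a test.

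**Figure D5:**
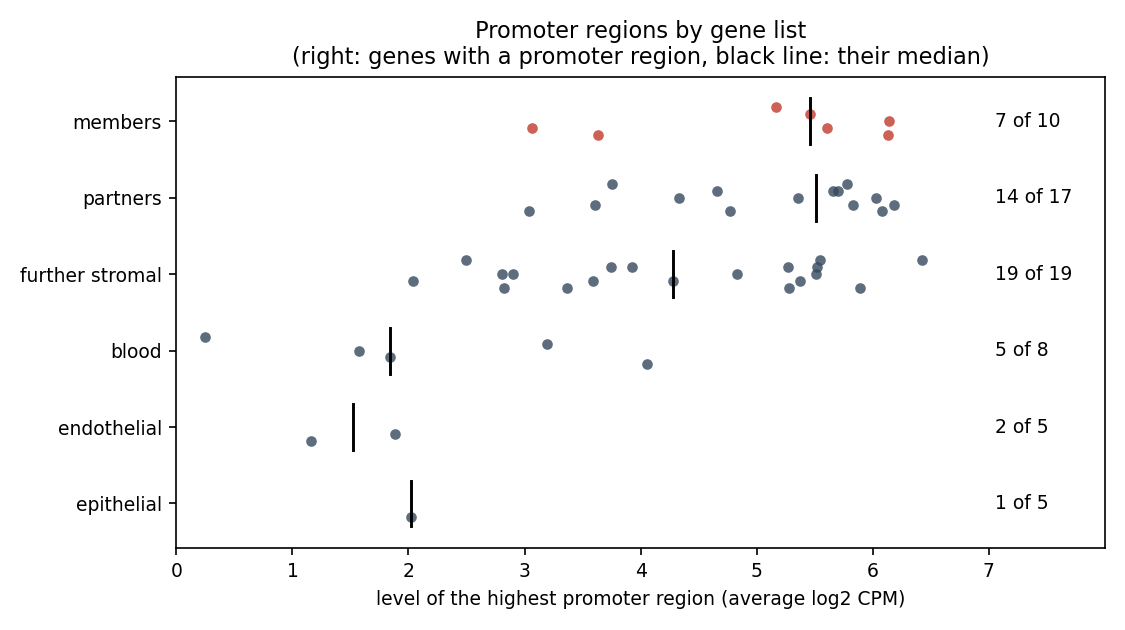
Level of the highest promoter region (average log2 CPM) for each gene of 6 lists, with the median as a black line and, at the right, the number of genes with a promoter region. The 7 members with one lie between 3.07 and 6.14, and the endothelial and epithelial genes with one lie at or under 2.02.

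Motif letters in the 87 regions were counted on both strands and set beside the share of all regions of the same width and promoter class that hold them, since wide regions hold more matches by their length. AP-1 letters (TGACTCA or TGAGTCA) were in 23 regions against 19.7 from that share, and in 22.1% of all regions. TEAD letters (GGAATG) were in 33 against 28.6, and in 31.5% of all regions, and RUNX letters (TGTGGT), read by factors of bone and blood formation, in 41 against 38.1, and in 42.7%. The E-box CATCTG was in 40 against 33.4, and in 37.1%. The core of the hypoxia response element (ACGTG or GCGTG), the letters read by HIF, was in 37 against 41.7, and in 46.2%, and in distal regions in 21 against 26.4. Matches of different motifs overlapped at 3 places, 1 of AP-1 with the hypoxia core and 2 of RUNX with it. All of these counts were near the share of regions like them, and none is a result about the members.

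By gene the counts are small, and the pairs of gene and motif given here, set beside the share of regions of their width, were picked after their values were seen. The hypoxia core was in 3 of the 19 Pdgfrb regions against 7.74, and in 8 of the 12 Twist2 regions against 5.29. Lepr had RUNX letters in 7 of its 9 regions against 4.11 and TEAD letters in 6 against 2.99, but AP-1 letters in 1 against 2.26. The E-box was in 9 of the 14 Eng regions against 5.83, and RUNX letters were in 2 of the 11 Nt5e regions against 4.03.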

How the data were processed

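ATAC-seq regions of 11 MPC2 cultures in 4 groups were used, as 1 deposited list. The authors trimmed reads with Trim Galore, aligned them to mm10 with Bowtie2, removed duplicates with Picard 2.17.8, and dropped mitochondrial reads and those with a low mapping score. Peaks were called with MACS2 2.2.7.1, merged across samples and cleared of ENCODE blacklist regions. Cuts were counted with pyDNase, regions with few cuts were dropped, and the counts were normalised by TMM in edgeR 3.24.3. Whether read ends were moved by the Tn5 offset is not given in the sources used here. A library that the authors left out was not analysed here. The merging widens a region to the union of its peaks. The deposited list has no header and holds for each of 94963 regions 1 log2 value, read as the average log2 CPM over all samples since 460 values are negative and the values, taken back to a linear scale, add up to 1012761. That reading is inferred. The planned comparisons between groups could not be made from pooled values, and depth per sample is unknown.

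Genes came from GENCODE M21. The window ran from 50 kb upstream of a gene to its end. Each of the 10 genes was compared with coding genes within 20% of its length, itself left out, and "above" means a larger value than in that percent of them. A promoter region lies within 1000 bp of an annotated transcript start of the gene. Level per length is the value minus log2 of the width in kb. Expected motif counts use all regions in the same of 20 width bins and promoter class. Every member and its promoter region, highest region and highest distal region were named, with partner and marker lists. The members and lists were chosen with earlier results of these data known. Counting of regions in windows, nearness to a start, joining of regions and matching of planted motif letters were tested on simulated data. The step that assigned promoter regions to genes and the expected motif counts were not part of that test. Scripts ran in Python 3.11.15 with numpy 2.4.6, pandas 2.3.3 and pysam 0.24.0.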

Additional observations from a re-analysis of the deposited data

How the results depend on the processing

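The number of regions at the 10 genes was 54 with 10 kb upstream and 39 with only regions of at least 500 bp, against 87. It was 61 with 20 kb, 129 with 100 kb, 130 with 50 kb on both sides, 79 with regions within 500 bp joined and 73 with starts of other genes left out. The genes above the median of similar genes numbered 4 to 6 under 11 alternatives, and those with a promoter region 7 or 8 under 4, with Lepr joining within 2000 bp of a start. Searching the central 200 bp of each region left AP-1 letters in 9, TEAD in 12, RUNX in 23, the E-box in 12 and the hypoxia core in 19 regions, with 10.2, 12.1, 19.0, 14.2 and 21.3 from regions of the same class. AP-1, TEAD and the E-box, above that share over whole regions, were then below it, RUNX was above it and the hypoxia core below it in both searches. The share of comparison genes with fewer regions ranged from 30.6% to 91.6% for Nt5e, 86.4% to 99.9% for Pdgfrb, 74.6% to 99.0% for Eng, 87.9% to 97.7% for Prrx1, 22.4% to 61.8% for Lepr, 0% to 57.9% for Thy1, 20.3% to 54.8% for Pdgfra, 76.3% to 91.3% for Twist2, 23.8% to 40.2% for Twist1 and 0% to 28.7% for Ly6a. With starts of other genes left out, Pdgfra had 2 regions in place of 5. Comparison genes with a like number of other coding starts were an alternative chosen after seeing the data. No paired analysis was possible because all cultures share a single value for each region. For the same reason no culture could be left out.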

Other observations

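The 50 kb beyond the 3′ end of the genes, outside the window used above, held further regions. Twist1 had 2 there, the higher at 1.47 average log2 CPM and 23.9 kb from its 5′ end. Twist2 had 7, all distal, with the highest at 4.97 and 56.5 kb from its 5′ end (chr1:91857139-91858834), a higher level than any distal region in its own window. Ly6a had 3, the highest at 4.34 at the start of the related gene Ly6e, 42.6 kb away. Thy1 had 7, of which 3 were distal, and the highest, 4.23, lay at a start of Usp2. The highest beyond Eng, 6.75, lay at the start of Cdk9. Beyond Pdgfrb there were 8, up to 3.64, beyond Prrx1 5, and beyond Nt5e 2, up to 2.80. Lepr had 1, at 0.52, and Pdgfra 1, at 2.71.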
